A study of Mus musculus with 16 samples.

Results

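The CC chemokines described here are 10 genes, Ccl2, Ccl3, Ccl4, Ccl5, Ccl6, Ccl7, Ccl8, Ccl9, Ccl11 and Ccl20, found by the gene name of their array probe. All 10 had a probe on the array, 1 each. Of these, 9 were well above background on all 16 arrays and belong to the 25862 genes tested, while Ccl20 was above the background flag on 0 arrays. CC chemokines are small secreted proteins that bind to proteoglycans on cells and matrix and attract leukocytes through G protein-coupled receptors. Monocytes carry Ccr2 and eosinophils Ccr3. In the rodent uterus, estrogen is known to bring on oedema and the entry of eosinophils and macrophages within hours.

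RNA came from the whole uterus of mice whose ovaries were removed at 4 weeks of age, kept 2 to 3 weeks without ovarian hormone. Castor oil was given under the skin to all of them, either without hormone (0 µg/kg, PLB) or with 8 µg/kg of 17beta-estradiol (E2), and tissue was sampled at 6 h. The mice were wild type (WT) or of the genotype labelled Arg260, after an arginine of estrogen receptor alpha (ERα); how that arginine was changed is not stated in the sources used here, nor is the strain or the age at treatment. Each genotype and treatment (WT PLB, WT E2, Arg260 PLB, Arg260 E2) is a group of 4 samples, with 1 array per sample. Each sample carries a number of its own, but no label says that they are separate animals, so p-values measure only the spread between these samples.

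Between 36505 and 41890 spots per array were well above background. All 7 genes of a list of uterine markers were in the fit, at a mean log2 level of 2.42 to 2.88 on every array. Along the second principal component, which held 5.12% of the variance, WT PLB replicate 2 lay at 68.8 and Arg260 PLB replicate 3 at -59.7, while the other arrays lay between -18.2 and 14.3. Member changes that rest on either array are given with and without it. Levels are log2 signals set relative to the 75th percentile of their array, which lies at 0, and they are compared between arrays for the same probe but not between probes. Changes are differences of group means of these levels, with the standard error (SE) of the limma fit and 4 arrays per group, and a call means an adjusted p under 0.05. In whole tissue, fewer cells of a type and less RNA per cell cannot be told apart.

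E2 raised the monocyte attractants Ccl2 and Ccl7 by more than 13-fold and the macrophage product Ccl4 by about 2.6 to 2.8-fold in both genotypes. In WT, 3 of the 9 tested members were higher after E2 and 1, Ccl5, was lower. In Arg260, 4 were higher, the fourth being Ccl9, and 0 were lower. The E2 response was broad in this tissue: limma called 63.5% of all 25862 genes in WT (31.9% higher, 31.7% lower) and 64.3% in Arg260 (33.6% higher, 30.7% lower). The share of members called was therefore not above that of all genes. The median change of the 9 members was 0.48 in WT and 0.73 in Arg260, beside -0.02 and 0.02 over all genes. The PLB and E2 arrays did not overlap for 5 members in WT and for 3 in Arg260, where 59.1% and 58.7% of all genes did not overlap.

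**Figure D1:**
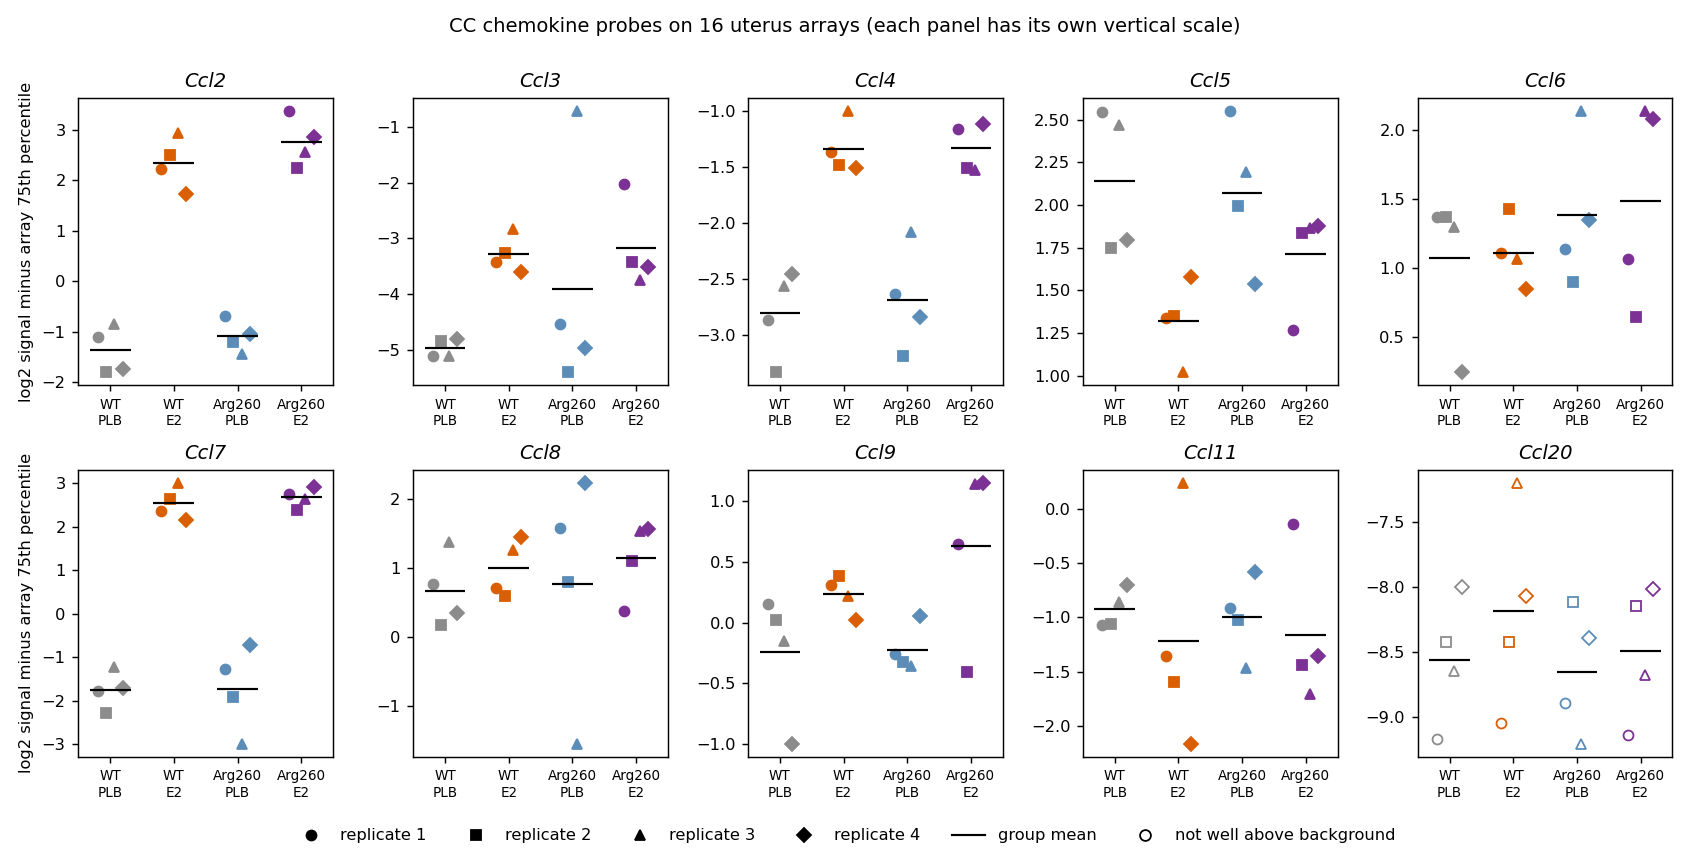
Log2 level (processed signal minus the 75th percentile of the array) of the 10 members on the 16 arrays, by group, with the replicate number as the marker shape and the group mean as a bar; open markers are not well above background. Ccl2, Ccl7 and Ccl4 have all E2 arrays above all PLB arrays in both genotypes, and Ccl3 has a single Arg260 PLB array at -0.72.

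Of the members, 9 lie on mouse chromosome 11 in a pair of gene groups. In the order of the GRCm38.p6 annotation, the first group runs Ccl2, Ccl7, Ccl11, Ccl12, Ccl8, Ccl1, and the other runs Ccl5, Ccl9, Ccl6, Ccl3, Ccl4. Ccl20 lies on chromosome 1. Ccl1 and Ccl12 are not members but neighbours. The first 30 bases of the 60-base probes of Ccl12 and of the 4 members in the first group are printed because these genes are close relatives and each value rests on 1 probe. They read 5′ to 3′ as deposited, and none has capitals since no part is singled out.
Ccl2: tgtaggagtgaccagtgtgacagtgaacta
Ccl7: ttctgagaactgttgatgaaatgtgttgat
Ccl11: taggagtaactgaggataatagcagcttat
Ccl12: cctgaagttccccacgggcagtgtgatatt
Ccl8: accagaagtctcaaattctgcagccttgaa
In the files' mm9 coordinates the whole probes lie on the plus strand at chr11:81850650-81850709 (Ccl2), chr11:81860656-81860715 (Ccl7), chr11:81876072-81876131 (Ccl11), chr11:81916764-81916823 (Ccl12) and chr11:81930108-81930167 (Ccl8). Among 77 pairs of the 13 probes of members, Ccl12 and Ccl1, the longest shared run was 9 bases and at most 26 of 60 bases matched without gaps.

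Ccl2, the main attractant of Ccr2-bearing monocytes, rose in both genotypes. In WT its log2 levels were -1.10, -1.80, -0.84 and -1.74 on the PLB arrays, and 2.22, 2.50, 2.95 and 1.72 on the E2 arrays. In Arg260 they were -0.68, -1.20, -1.44 and -1.04 with PLB, and 3.37, 2.24, 2.56 and 2.85 with E2. Every E2 array lay above every PLB array, and within each treatment the genotypes overlapped. The change was 3.72 (SE 0.30, limma adjusted p = 6.06e-08) in WT, which is 13.2-fold, and 3.85 (SE 0.30, adjusted p = 4.21e-08) in Arg260, which is 14.4-fold. The Ccl2 probe is printed at 10 spots on each array, and the standard deviation between those spots was 0.04 to 0.11 log2 units, small against this change.

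Ccl7, which attracts monocytes through Ccr2 and also binds Ccr1 and Ccr3, had the largest change among the 9 tested members in both genotypes. Its WT levels were -1.78, -2.27, -1.22 and -1.72 with PLB, and 2.36, 2.63, 3.00 and 2.16 with E2. Its Arg260 levels were -1.27, -1.91, -2.99 and -0.73 with PLB, and 2.76, 2.38, 2.64 and 2.91 with E2. The groups again did not overlap, and the lowest of the 16 values was that of Arg260 PLB replicate 3. Ccl7 rose by 4.28 (SE 0.38, limma adjusted p = 1.53e-07) in WT, or 19.5-fold, and by 4.39 (SE 0.38, adjusted p = 1.15e-07) in Arg260, or 21.0-fold. Without Arg260 PLB replicate 3 and WT PLB replicate 2 the Arg260 change was 3.97 (adjusted p = 8.65e-08).

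Ccl8, which in the mouse attracts T cells through Ccr8, did not pass the test although it lies between Ccl12 and Ccl1 on the chromosome. Its WT levels were 0.77, 0.19, 1.39 and 0.35 with PLB, and 0.72, 0.60, 1.26 and 1.46 with E2. Its Arg260 levels were 1.58, 0.80, -1.54 and 2.24 with PLB, and 0.38, 1.10, 1.54 and 1.56 with E2. The treatments overlapped in both genotypes, and Arg260 PLB replicate 3 held the lowest value. The change was 0.34 (SE 0.61, limma adjusted p = 0.655) in WT and 0.38 (SE 0.61, adjusted p = 0.607) in Arg260, where leaving out Arg260 PLB replicate 3 turned it to -0.39.

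Ccl11, eotaxin, the attractant of eosinophils through Ccr3, was not called either. With PLB its WT levels were -1.07, -1.06, -0.86 and -0.70, and with E2 they were -1.35, -1.60, 0.24 and -2.16. In Arg260 the PLB levels were -0.92, -1.02, -1.47 and -0.58, and the E2 levels were -0.14, -1.43, -1.70 and -1.35. In each genotype 3 of the E2 arrays were low and a single E2 array was high, WT E2 replicate 3 and Arg260 E2 replicate 1. The change was -0.29 (SE 0.43, limma adjusted p = 0.574) in WT and -0.16 (SE 0.43, adjusted p = 0.760) in Arg260. Without WT E2 replicate 3 the WT change was -0.78 (adjusted p = 0.0515).

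Ccl12, a relative of Ccl2 that also acts on Ccr2 and lies between Ccl11 and Ccl8, rose in both genotypes. Its WT levels were -1.33, -0.78, -0.10 and 0.07 with PLB, and 2.95, 2.87, 2.68 and 2.59 with E2. Its Arg260 levels were -0.48, -0.66, -3.49 and 0.25 with PLB, and 2.46, 3.06, 3.13 and 3.15 with E2. No E2 array overlapped a PLB array, and the lowest value was again that of Arg260 PLB replicate 3. The change was 3.31 (SE 0.59, limma adjusted p = 1.85e-04) in WT, or 9.91-fold, and 4.05 (SE 0.59, adjusted p = 2.75e-05) in Arg260, or 16.5-fold. Without Arg260 PLB replicate 3 and WT PLB replicate 2 the Arg260 value was 3.25 (adjusted p = 1.99e-06). Within the second slide alone the WT value was 2.65 (SE 1.08) and not called (adjusted p = 0.0953). That slide holds Arg260 PLB replicate 3, and the groups share 1 estimate of the spread.

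**Figure D2:**
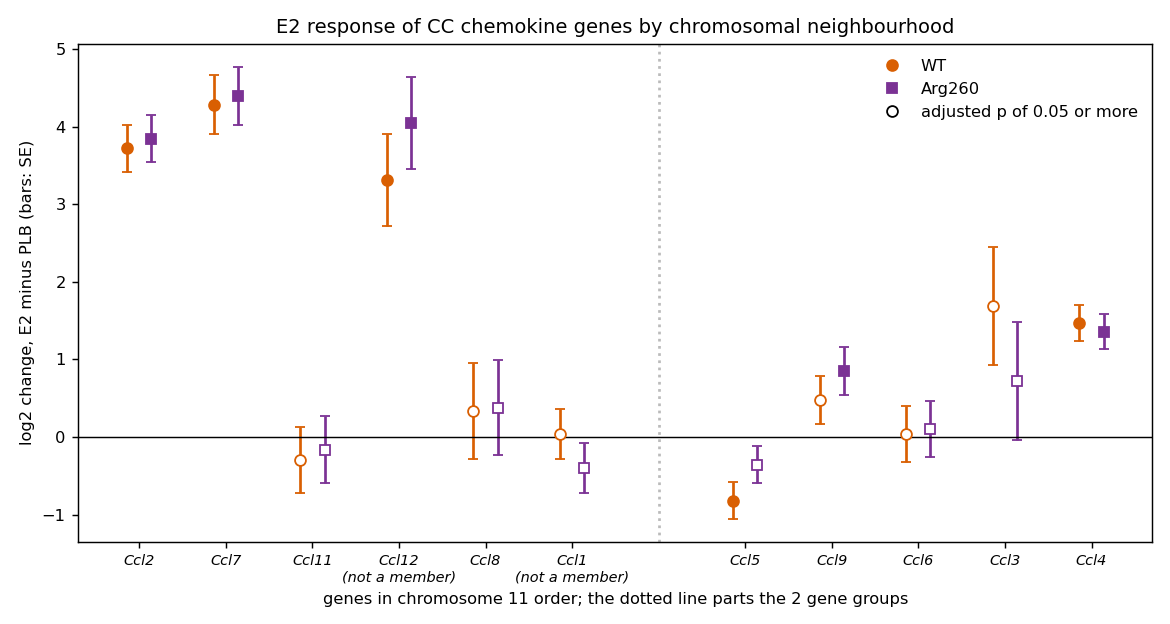
Log2 change of E2 minus PLB (group means of 4 arrays each, bars are the SE of the limma fit) in WT and Arg260 for the genes of both chromosome 11 groups, in chromosomal order, with open markers at an adjusted p of 0.05 or more. Ccl2, Ccl7 and Ccl12 lie between 3.31 and 4.39 while Ccl11, Ccl8 and Ccl1 between and beside them lie between -0.40 (Ccl1) and 0.38 (Ccl8).

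Promoter sequences were matched in RefSeq (GRCm38.p6) for 5 of the 10 members, Ccl3, Ccl6, Ccl8, Ccl9 and Ccl20. The 250 bases before the annotated start of Ccl8 and of its neighbour Ccl12 are printed because these genes differed in whether E2 changed them. Neither holds a match to the motifs searched, so no letters are in capitals. Both run along the plus strand, at chr11:82114935-82115184 for Ccl8 and chr11:82101595-82101844 for Ccl12.
Ccl8: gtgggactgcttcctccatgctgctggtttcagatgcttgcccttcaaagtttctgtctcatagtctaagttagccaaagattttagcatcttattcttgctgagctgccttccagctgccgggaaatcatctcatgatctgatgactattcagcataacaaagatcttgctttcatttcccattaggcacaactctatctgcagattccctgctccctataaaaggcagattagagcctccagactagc
Ccl12: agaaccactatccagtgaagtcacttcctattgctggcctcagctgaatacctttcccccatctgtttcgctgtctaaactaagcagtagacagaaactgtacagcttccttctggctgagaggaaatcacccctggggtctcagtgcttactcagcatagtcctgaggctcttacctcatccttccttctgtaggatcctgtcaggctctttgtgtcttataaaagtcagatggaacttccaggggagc
The motifs searched on both strands were the NF-kappaB consensus, the AP-1 site TGANTCA, the STAT site TTCNNNGAA, the palindromic estrogen response element, and its arm GGTCA, which also lies inside the whole element. Over 32544 promoter windows of the same length, 3.92% held the NF-kappaB motif, 6.73% the AP-1 motif, 7.04% the STAT motif, 0.0645% the estrogen response element and 35.3% the arm. Among the members, the NF-kappaB motif was found for Ccl9 and Ccl20, the AP-1 motif for Ccl9, the arm for Ccl3, Ccl6, Ccl9 and Ccl20, and the STAT motif and the whole estrogen response element for none of the 5.

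Ccl4, macrophage inflammatory protein 1 beta, a product of activated macrophages, rose by a smaller step than Ccl2 and Ccl7. With PLB its WT levels were -2.87, -3.33, -2.56 and -2.45, and with E2 they were -1.37, -1.48, -1.00 and -1.50. In Arg260 they were -2.64, -3.19, -2.08 and -2.84 with PLB, and -1.15, -1.51, -1.53 and -1.11 with E2. All E2 arrays lay above all PLB arrays, with the genotypes overlapping within each treatment. The change was 1.47 (SE 0.23, limma adjusted p = 5.31e-05) in WT, or 2.77-fold, and 1.36 (SE 0.23, adjusted p = 1.08e-04) in Arg260, or 2.57-fold.

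Ccl3, macrophage inflammatory protein 1 alpha, binds Ccr1 and is the neighbour of Ccl4. Its WT levels were -5.10, -4.85, -5.12 and -4.81 with PLB, and -3.42, -3.27, -2.82 and -3.60 with E2. Its Arg260 levels were -4.54, -5.40, -0.72 and -4.96 with PLB, and -2.03, -3.43, -3.74 and -3.52 with E2. Some PLB levels lay near the lowest level counted as well above background. On Arg260 PLB replicate 2 that lowest level was -5.78 and Ccl3 was at -5.40. On WT PLB replicate 4 it was -5.68 and Ccl3 was at -4.81. The treatments did not overlap in WT, whereas in Arg260 the PLB array of replicate 3 lay above every other array of the study. The change was 1.69 in WT (SE 0.76, limma adjusted p = 0.0664) and 0.73 in Arg260 (SE 0.76, adjusted p = 0.423), neither of them called. Leaving out Arg260 PLB replicate 3 kept the WT change at 1.69 with an SE of 0.32 (adjusted p = 3.75e-04), since the groups share 1 estimate of the spread, and gave 1.79 in Arg260 (adjusted p = 4.70e-04).

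On Arg260 PLB replicate 3 other genes of inflammation also took the extreme value of their group. Il1b lay at -1.85 there, against -5.31 to -4.59 on the other Arg260 PLB arrays. Tnf lay at -3.22, against -5.83 to -5.56. The mean log2 level of 10 macrophage markers was 1.16, the highest of the 16 arrays, against 0.31 to 0.48 on the other Arg260 PLB arrays. Ccl4 and Ccl6 were also at their group's highest level there, while Ccl2, Ccl7, Ccl8, Ccl9, Ccl11 and Ccl12 were at their group's lowest. What part these differences have in the Ccl3 value was not tested.

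Ccl5 (RANTES), made by T cells and other leukocytes and a ligand of Ccr1 and Ccr3, fell in WT. Its WT levels were 2.55, 1.75, 2.47 and 1.79 with PLB, and 1.34, 1.35, 1.02 and 1.58 with E2. Its Arg260 levels were 2.55, 2.00, 2.19 and 1.54 with PLB, and 1.27, 1.84, 1.87 and 1.88 with E2. In WT all E2 arrays lay below all PLB arrays, and in Arg260 the treatments overlapped. In WT Ccl5 fell by 0.82 (SE 0.24, limma adjusted p = 0.00726), which is 1.76-fold, and in Arg260 the change was -0.36 (SE 0.24, adjusted p = 0.203). With quantile normalisation the Arg260 change was -0.61 and called (adjusted p = 0.0483), and within each slide of 8 arrays the WT change was -0.80 and -0.83 and not called (adjusted p = 0.0935 and 0.0901). Of 8 markers of T and NK cells, 1 fell after E2 in WT (Cd3g, -0.45, limma adjusted p = 0.0295) and 0 in Arg260. Over all genes, 31.7% and 30.7% were lower. The list's mean level ranged from -2.27 to -1.76 in WT PLB, -2.39 to -2.11 in WT E2, -2.16 to -1.59 in Arg260 PLB and -2.41 to -1.96 in Arg260 E2. Their part in the Ccl5 change was not tested.

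Ccl9 and Ccl6 are rodent chemokines of macrophages and other myeloid cells that act on Ccr1. For Ccl9 the WT levels were 0.16, 0.02, -0.15 and -1.00 with PLB, and 0.31, 0.38, 0.22 and 0.02 with E2. The Arg260 levels were -0.26, -0.33, -0.36 and 0.05 with PLB, and 0.65, -0.41, 1.14 and 1.15 with E2. In Arg260 3 of the 4 E2 arrays lay above all PLB arrays and the remaining E2 array, replicate 2, lay below them. Ccl9 rose by 0.86 in Arg260 (SE 0.31, limma adjusted p = 0.0248), or 1.81-fold, and its WT change was 0.48 (SE 0.31, adjusted p = 0.191). The Arg260 call was lost without Arg260 PLB replicate 2 (0.82, adjusted p = 0.0532) or 3 (0.81, adjusted p = 0.0541), and without Arg260 E2 replicate 3 (0.69, adjusted p = 0.0796) or 4 (0.68, adjusted p = 0.0816). It was also lost within the first slide (0.41, adjusted p = 0.318) and kept within the second (1.30, adjusted p = 0.0153).

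The 250 bases before the start of Ccl9 are printed because it is the only one of the 5 matched members with both an NF-kappaB and an AP-1 match, and those of Ccl20 because its other NF-kappaB match belongs to a probe without a measured level. Ccl9 is on the minus strand at chr11:83578637-83578886 and Ccl20 on the plus strand at chr1:83116516-83116765 (RefSeq, GRCm38.p6), and capitals mark the AP-1 and NF-kappaB matches.
Ccl9: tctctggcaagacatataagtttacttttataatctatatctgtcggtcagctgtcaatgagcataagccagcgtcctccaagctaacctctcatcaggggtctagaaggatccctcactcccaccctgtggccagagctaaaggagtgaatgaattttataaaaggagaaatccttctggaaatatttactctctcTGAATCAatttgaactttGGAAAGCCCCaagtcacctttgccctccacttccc
Ccl20: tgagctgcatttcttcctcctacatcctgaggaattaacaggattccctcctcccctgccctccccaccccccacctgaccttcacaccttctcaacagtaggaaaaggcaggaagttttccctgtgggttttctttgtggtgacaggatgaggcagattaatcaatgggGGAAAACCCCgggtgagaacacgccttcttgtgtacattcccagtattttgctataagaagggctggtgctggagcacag
In Ccl9 the AP-1 match begins 53 bases and the NF-kappaB match 35 bases before the start, and in Ccl20 the NF-kappaB match begins 80 bases before it. A match describes these letters and not a bound site.

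Ccl6 did not pass the test in either genotype. Its WT levels were 1.37, 1.37, 1.30 and 0.25 with PLB, and 1.11, 1.43, 1.06 and 0.85 with E2. Its Arg260 levels were 1.14, 0.90, 2.14 and 1.35 with PLB, and 1.06, 0.65, 2.14 and 2.08 with E2. The treatments overlapped in both genotypes, and a wide spread was seen in 3 of the 4 groups, with WT E2 the exception. The change was 0.04 (SE 0.36, limma adjusted p = 0.931) in WT and 0.10 (SE 0.36, adjusted p = 0.823) in Arg260. Ccl20, the ligand of Ccr6 made by epithelium, gave signals below the flag for background in all groups, so that no fold is given for it. Its probe lies at chr1:83115682-83115741 (mm9).

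No difference between the genotypes was called for any member. For the difference of the E2 responses (Arg260 minus WT), and for the genotypes compared in PLB or in E2, limma called 0 of the 9 members and 0% of all genes. At an unadjusted p under 0.05 there were 0 members in each comparison, and 961, 638 and 1900 of all genes. Across the alternative settings 0 members and between 0 and 3 genes were called. These intervals are wide for some members, so that they do not show equal responses. The difference of the responses was 0.13 for Ccl2 (95% interval -0.78 to 1.04), 0.11 for Ccl7 (-1.04 to 1.26) and -0.11 for Ccl4 (-0.81 to 0.59). For Ccl5 it was 0.46 (-0.25 to 1.18), for Ccl9 0.38 (-0.56 to 1.31) and for Ccl3 -0.96 (-3.27 to 1.35). The Ccl3 difference was 0.06 without WT PLB replicate 2 and Arg260 PLB replicate 3.

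In PLB the Arg260 level minus the WT level ranged over the members from -0.07 to 1.06, with the highest value for Ccl3 (95% interval -0.57 to 2.70). Without WT PLB replicate 2 and Arg260 PLB replicate 3 the Ccl3 value was 0.04. In E2 it ranged from 0.01 for Ccl4 to 0.41 for Ccl2 (95% interval -0.24 to 1.05). For each member both genotypes overlapped in PLB and in E2, where 1.66% and 3.95% of all genes did not overlap.

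**Figure D3:**
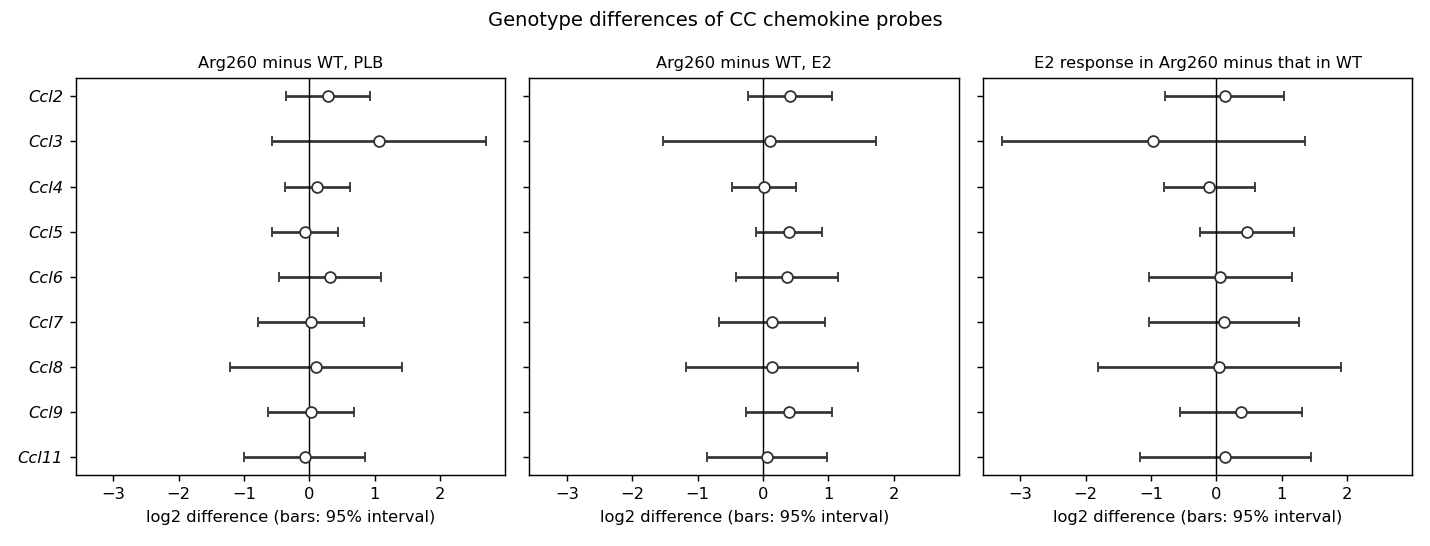
Log2 difference with its 95% interval from limma for the 9 tested members, for Arg260 minus WT in PLB, for Arg260 minus WT in E2, and for the E2 response in Arg260 minus that in WT. Every interval spans 0, and those of Ccl3 are the widest, from -3.27 to 1.35 in the right panel.

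Among the receptors and scavengers of CC chemokines, the called genes with the largest changes were the atypical receptors Ackr4, Ackr2 and Ccrl2. Another atypical receptor, Ackr1, changed less. It had a change of 0.28 in WT, not called, and 0.61 in Arg260, a call that was lost in some other settings. Of 14 listed genes 13 were tested. In WT 2 were higher and 5 lower (median -0.43), and in Arg260 3 were higher and 4 lower (median -0.03). Of all genes, 31.9% were higher and 31.7% lower in WT, with 33.6% and 30.7% in Arg260. Ackr2, which internalises and degrades inflammatory CC chemokines including Ccl2, rose by 1.64 (SE 0.21, limma adjusted p = 6.56e-06) in WT and 1.99 (SE 0.21, adjusted p = 8.78e-07) in Arg260. Its levels were -0.99 to -0.07 in WT PLB, 0.88 to 1.44 in WT E2, -0.63 to -0.38 in Arg260 PLB and 0.90 to 1.78 in Arg260 E2. Ackr4, the scavenger of Ccl19, Ccl21 and Ccl25, fell by 2.74 (SE 0.44, adjusted p = 6.56e-05) in WT and by 3.02 (SE 0.44, adjusted p = 2.52e-05) in Arg260, where it was well above background on 2 of the 4 E2 arrays. Ccrl2, which binds chemerin without signalling, fell by 1.69 (SE 0.16, adjusted p = 2.54e-07) in WT and by 1.50 (SE 0.16, adjusted p = 8.36e-07) in Arg260. The array names of Ackr2 and Ackr4 are the older Ccbp2 and Ccrl1.

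The signalling receptors described here moved less. Ccr2, which binds Ccl2, Ccl7 and Ccl12, had changes of -0.43 (SE 0.20, limma adjusted p = 0.0745) in WT and -0.29 (SE 0.20, adjusted p = 0.222) in Arg260, neither called. The WT value of Ccr2 was called without WT PLB replicate 2 (-0.53, adjusted p = 0.0479) or 4 (-0.59, adjusted p = 0.0164). Ccr3, the eosinophil receptor of Ccl11, fell by 0.82 in WT (SE 0.19, adjusted p = 0.00187) and by 0.77 in Arg260 (SE 0.19, adjusted p = 0.00287). It was well above background on 2 of 4 WT E2 and 3 of 4 Arg260 E2 arrays, against all PLB arrays. Within the first slide the Arg260 change of Ccr3 was -0.62 and not called (adjusted p = 0.0913), and with the deposited series table the WT change was -0.31 (adjusted p = 0.0520). Ccr6, the receptor of Ccl20, had changes of -0.38 (adjusted p = 0.0761) in WT and 0.01 (adjusted p = 0.955) in Arg260, and without WT PLB replicate 3 its WT change of -0.48 was called (adjusted p = 0.0379). Ccr8, the receptor of Ccl8, had changes of 0.29 (limma adjusted p = 0.496) and 0.18 (adjusted p = 0.670). Its levels were low, from -6.31 to -4.63. The lowest level counted as well above background was -7.21 to -5.68, depending on the array. These Ccr8 values therefore say little about its response. Ccr1, which binds Ccl3, Ccl5, Ccl6, Ccl7 and Ccl9, was not tested because too few arrays had it above background.

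Of the 14 other CC chemokines listed, 10 had a probe and 8 were tested. In WT 4 were higher and 1, Ccl27a, lower (median 1.03), and in Arg260 2 were higher and 0 lower (median 0.43). All genes were called higher at 31.9% and lower at 31.7% in WT, and at 33.6% and 30.7% in Arg260. The higher genes in WT included Ccl17, a ligand of Ccr4 (0.90, limma adjusted p = 0.0410), whose call was lost without WT PLB replicate 2 (0.80, adjusted p = 0.0981) and in 8 other settings. Without that array 3 were higher in each genotype. Ccl27a, at -0.40 in WT (limma adjusted p = 0.00337) and -0.07 in Arg260 (adjusted p = 0.585), was also called in Arg260 with quantile normalisation (-0.43, adjusted p = 0.00164), with normexp before it (-0.42, adjusted p = 0.00174), and in the deposited series table (-0.40, adjusted p = 0.00484), and its WT call was lost with the mean of all probes (-0.13, adjusted p = 0.137) and within the first slide (-0.25, adjusted p = 0.0831). Besides Ccl12, the lymphoid chemokine Ccl19, a ligand of Ccr7, rose in both genotypes. Its levels were -3.55 to -2.84 in WT PLB and -2.06 to -1.58 in WT E2, with -3.86 to -3.08 in Arg260 PLB and -1.33 to -1.03 in Arg260 E2, without overlap. It rose by 1.26 (SE 0.18, limma adjusted p = 2.09e-05) in WT, or 2.40-fold, and by 2.21 (SE 0.18, adjusted p = 6.51e-08) in Arg260, or 4.61-fold. The difference of these responses was 0.94 (SE 0.25) and was not called (adjusted p = 0.9998). Ccl25, the ligand of Ccr9, had a change of 3.18 (SE 1.08, adjusted p = 0.0189) in WT and 1.78 (SE 1.08, adjusted p = 0.167) in Arg260. WT PLB replicate 2 lay at -8.33 and not well above background, with the other WT PLB arrays at -1.92 to -1.63. Without it the WT change of Ccl25 was 1.54 (adjusted p = 3.60e-06), and the Arg260 change of 1.78 was called (adjusted p = 3.78e-07).

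Both cytokines and NF-kappaB genes were among the listed genes that rose, as were inhibitors of NF-kappaB. Of 18 listed inflammatory inducers and NF-kappaB genes 15 were tested, and 10 were higher and 1 lower in each genotype (median 0.67 in WT and 0.68 in Arg260), where 31.9% and 33.6% of all genes were higher. Of the 5 tested cytokines Tnf, Il1b, Il6, Il4 and Ifng, 3 rose in WT and 2 in Arg260. Nfkbia, which holds NF-kappaB in the cytoplasm, rose by 0.62 (limma adjusted p = 3.73e-04) in WT and 0.64 (adjusted p = 3.06e-04) in Arg260. With quantile normalisation the Arg260 change of Nfkbia was 0.19 and not called. It was not called with normexp before that either (0.16, adjusted p = 0.217), nor in the series table (0.15, adjusted p = 0.244). Tnfaip3, which ends NF-kappaB signalling, rose by 0.57 (limma adjusted p = 0.00767) in WT and 0.68 (adjusted p = 0.00222) in Arg260. Within the second slide Tnfaip3 was not called in WT (0.34, adjusted p = 0.279) or Arg260 (0.57, adjusted p = 0.0892). Il6, the cytokine of the acute phase response, rose by 4.30 (SE 0.44, limma adjusted p = 6.78e-07) in WT and 4.70 (SE 0.44, adjusted p = 2.57e-07) in Arg260, and was well above background on 1 of 4 PLB arrays and on all 4 E2 arrays of each genotype, so that the size of this change rests mostly on PLB values that were not above background. Il1b, an inducer of Ccl2, rose by 1.90 (SE 0.61, adjusted p = 0.0142) and 1.80 (SE 0.61, adjusted p = 0.0189). Within the second slide Il1b was not called (1.32, SE 1.06, adjusted p = 0.357, and 1.23, SE 1.06, adjusted p = 0.391). That slide holds Arg260 PLB replicate 3, and the groups share 1 estimate of the spread. In Arg260 the Il1b call was also lost without Arg260 PLB replicate 2 (1.44, adjusted p = 0.0649) or 4 (1.47, adjusted p = 0.0625), while without Arg260 PLB replicate 3 the change was 2.60 (adjusted p = 2.88e-05). Tnf rose by 1.65 in WT (SE 0.46, adjusted p = 0.00604), with 2 of 4 PLB arrays well above background. Within the second slide, where the spread is again shared with Arg260 PLB replicate 3, its WT change was 1.84 (SE 0.86) and not called (adjusted p = 0.134). In Arg260 the Tnf change of 0.92 was not called (adjusted p = 0.0949), but without Arg260 PLB replicate 3 it was 1.54 (adjusted p = 1.26e-04). The lower gene in Arg260 was Il4 (adjusted p = 0.0161), which had 0 of 4 E2 arrays well above background. Its call was lost with normexp (-0.19, adjusted p = 0.138), with normexp and quantile normalisation (-0.14, adjusted p = 0.0649), in the series table (-0.25, adjusted p = 0.0561), within each slide (adjusted p = 0.104 and 0.0891) and without Arg260 E2 replicate 1 (adjusted p = 0.0511), so no fold is given for it.

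**Figure D4:**
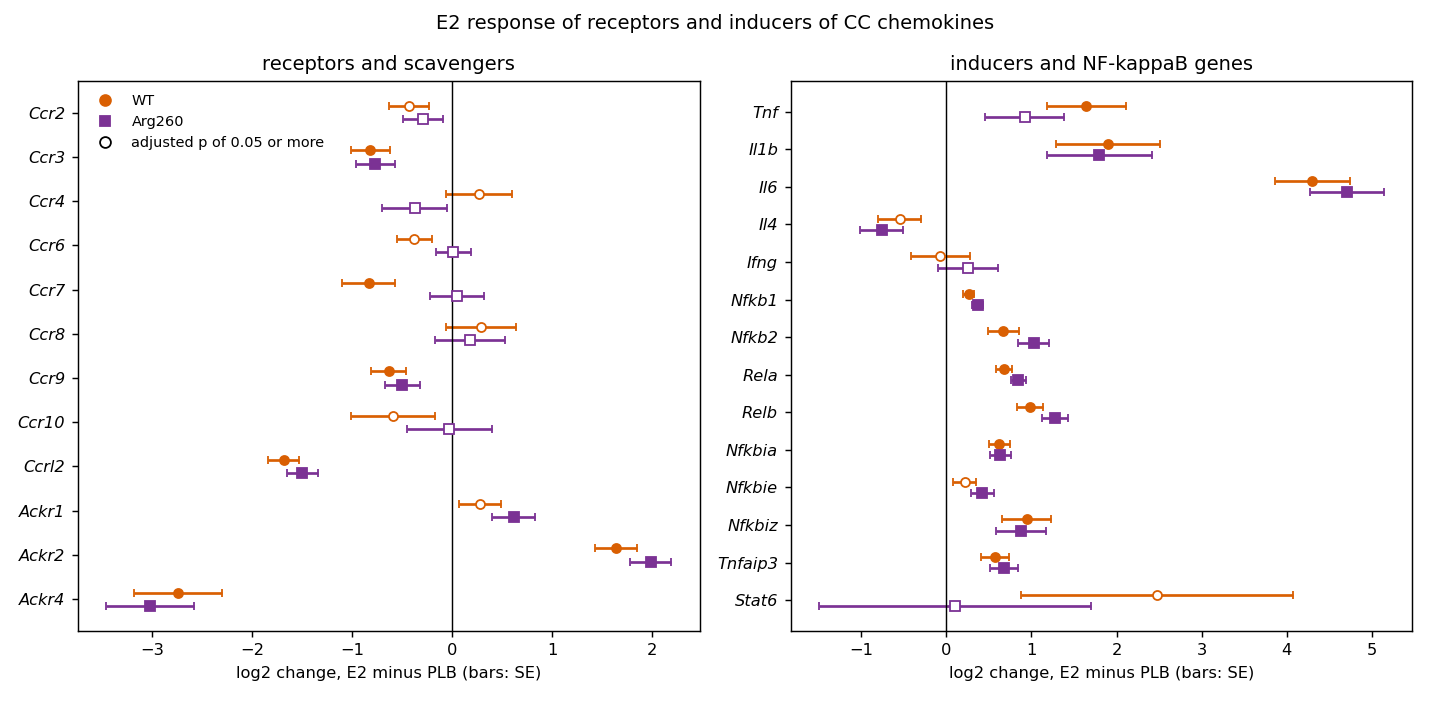
Log2 change of E2 minus PLB (group means of 4 arrays each, bars are the SE of the limma fit) for tested receptors and scavengers and for tested inducers and NF-kappaB genes in WT and Arg260, with open markers at an adjusted p of 0.05 or more. Ackr2 lies at 1.64 and 1.99 and Ackr4 at -2.74 and -3.02, with Il6 at 4.30 and 4.70 on the right.

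Genes that act on chemokine RNA or protein were listed as well, 5 in all. Of these, 3 rose and 1 fell in each genotype (median 0.96 in WT and 0.83 in Arg260). Among all genes 31.9% rose and 31.7% fell in WT, and 33.6% and 30.7% in Arg260. Zfp36, which binds AU-rich elements and speeds the decay of cytokine RNAs, rose by 1.93 (SE 0.25, limma adjusted p = 8.98e-06) in WT and 2.02 (SE 0.25, adjusted p = 5.42e-06) in Arg260. Sdc1, a heparan sulphate proteoglycan that holds chemokines at the cell surface, rose by 1.17 (SE 0.14, adjusted p = 4.07e-06) and 0.98 (SE 0.14, adjusted p = 2.52e-05). Dpp4, the peptidase that trims the amino terminus of many chemokines, fell by 0.95 (SE 0.10, adjusted p = 1.47e-06) and by 0.92 (SE 0.10, adjusted p = 1.93e-06).

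Marker genes of the cells that make or follow CC chemokines did not move as a block. Their counts stand beside the shares of all genes called, 31.9% higher and 31.7% lower in WT, and 33.6% and 30.7% in Arg260. Of 10 macrophage markers 2 were higher and 4 lower in WT (median -0.75), and 2 higher and 5 lower in Arg260 (median -0.64). Fcgr1 rose by 0.90 (limma adjusted p = 3.61e-04) and Cd68 by 0.66 (adjusted p = 0.0108) in WT, while Csf1r fell by 0.71 (adjusted p = 0.00114). The mean log2 level of the list was 0.30 to 0.61 in WT PLB, -0.10 to 0.10 in WT E2, 0.31 to 1.16 in Arg260 PLB and 0.03 to 0.55 in Arg260 E2. Of 4 tested monocyte markers 1, Chil3, rose in each genotype (1.48 in WT and 2.12 in Arg260), with the list at -0.16 to 0.10 in WT PLB, -0.20 to 0.29 in WT E2, -0.53 to -0.09 in Arg260 PLB and 0.18 to 0.62 in Arg260 E2. Of 7 tested neutrophil markers 3 rose and 0 fell in each genotype, Ly6g by 1.38 in WT and 1.60 in Arg260, with the list at -2.11 to -1.26 in WT PLB, -1.72 to -0.25 in WT E2, -2.53 to -1.83 in Arg260 PLB and -1.70 to -1.03 in Arg260 E2. Of 7 tested eosinophil markers 0 rose, and 2 fell in each genotype. That list lay at -3.78 to -3.10 in WT PLB, -3.89 to -3.08 in WT E2, -3.30 to -2.70 in Arg260 PLB and -3.89 to -3.21 in Arg260 E2.

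Of 7 adipocyte markers all fell in WT and 2 in Arg260, and their mean level spanned 0.37 to 2.41 in WT PLB, -4.94 to -0.59 in WT E2, -0.05 to 1.52 in Arg260 PLB and -2.64 to 0.51 in Arg260 E2. Of 5 stromal markers 3 (Pdgfra, Vim and Dcn) fell and 0 rose in each genotype (median -0.65 in WT and -0.74 in Arg260), and the mean level of the list was 4.42 to 5.04 in WT PLB, 3.79 to 4.57 in WT E2, 4.47 to 4.98 in Arg260 PLB and 3.93 to 4.26 in Arg260 E2. Of 5 myometrial markers 3 rose in WT and 1 in Arg260, and 0 fell. Of 6 endothelial markers 1 was higher and 3 lower in WT, with 2 higher and 0 lower in Arg260. Of 6 mast cell markers 1 was higher and 1 lower in WT, with 1 higher and 3 lower in Arg260. The shares of all genes called are those given above for the other marker lists. The part of any of these cell types in the changes of Ccl2, Ccl7, Ccl4, Ccl5 or Ccl9 was not tested.

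The genes most like each member were taken as those with the smallest root mean square difference between centred log2 profiles over the 16 arrays, among 15222 genes. For Ccl2 these were Scml4 (0.32) and Trabd2b (0.33), where the profile of Ccl2 itself has a root mean square of 1.94. For Ccl7 they were Alpl (0.35) and Ppp2r2c (0.35). For Ccl4 the nearest were Lilrb4a (0.20), an inhibitory receptor of myeloid cells, and Zmynd15 (0.21). Ccl3 lay nearest to Cd72 (0.38) and Gsg1 (0.44). Its profile includes Arg260 PLB replicate 3 at -0.72, above every other array, and likeness without that array was not tested. Ccl5 lay nearest to Cd3d (0.19), a chain of the T cell receptor complex, and Tgtp2 (0.19), an interferon-induced GTPase. For Ccl9 the nearest was Ackr1 (0.26), which binds chemokines on venules and red cells, followed by Prrt4 (0.33). Ccl6 lay nearest to Irf5 (0.32) and Sirpb1b (0.34), Ccl8 to Tnnt2 (0.47) and F13a1 (0.50), and Ccl11 to Cacna2d3 (0.32) and Ccn4 (0.34). The member's own root mean square was 2.23 for Ccl7, 1.23 for Ccl3 and 0.77 for Ccl4. It was 0.45 for Ccl5, 0.51 for Ccl6, 0.83 for Ccl8, 0.54 for Ccl9 and 0.58 for Ccl11. Relative to that spread, the nearest genes of these last members were less close than those of Ccl2.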

How the data were processed

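Whole-uterus RNA, 200 ng per sample per the labels, was measured on 16 one-colour Agilent arrays on 2 slides of 8. The authors deposited spot intensities from Agilent Feature Extraction 10.10.1.1 (background-subtracted, per the file headers), and a series table of 37585 probes with log2 values that share 1 distribution per array (median 8.69). The submitters' processing notes name limma. The table's background correction is not given in the sources used here, and it served as an alternative only.

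Outlier spots were left out, spots of a probe averaged, and the log2 75th percentile of the array subtracted. Probes well above background on at least 4 of 16 arrays were kept (38683), and the probe with the highest mean stood for a gene, which left 25862 genes, 137 of them missing on some array. Probe names were updated with the GRCm38.p6 gene table (27235 by accession, 3581 by symbol, 565 by synonym, and 24300 kept). Group means of all 16 arrays were fitted with limma 3.58.1 in R 4.3.3 (12 residual degrees of freedom), which was tested on simulated data. Tests were two-sided with Benjamini-Hochberg adjustment over all genes, and a call is an adjusted p under 0.05. Precision is limited by the 4 arrays per group. Over all genes, an E2 change had a median 95% interval of 0.296 log2 units to either side. The intervals of the 9 tested members were all wider. In WT the narrowest was that of Ccl4 (0.98 to 1.96) and the widest that of Ccl3 (0.06 to 3.32).

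The members, the gene lists and the tests were chosen with earlier results of these data known. Named beside the members were, per list, the 3 called genes with the largest mean E2 change over both genotypes, and receptors of the members; some listed genes are counted but not reported here. Ackr1, Cd3g, Il4, Nfkbia, Tnfaip3, Ccl17, Ccl27a, Pdgfra, Vim, Dcn, Fcgr1, Cd68, Csf1r, Chil3 and Ly6g were named after their values were seen. Alternatives were background correction by normexp, quantile normalisation, the series table, other filters, the mean of all probes, slide or replicate number as a block, each slide alone, and each array left out in turn. Same-numbered samples deviated together weakly or not at all (correlations of -0.05 to 0.26). Low correlations cannot exclude that the numbers pair samples. The main fit used no pairing, and the replicate block is given as an alternative.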

Additional observations from a re-analysis of the deposited data

Results flagged for a closer look

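In 2 of the 40 member-by-group sets of 4 arrays, a single array lay far from the others by Dixon's criterion, and chance alone gives about 1 in 20. Ccl5 on Arg260 E2 replicate 1 was at a log2 level of 1.27, with the other 3 arrays at 1.84 to 1.88. Ccl6 on WT PLB replicate 4 was at 0.25, with the other 3 arrays at 1.30 to 1.37.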

How the results depend on the processing

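Over 30 alternative settings and 45 results of members (9 genes in 5 comparisons), 1332 of 1350 values kept the side of the threshold and, where called, the direction. In the others, 8 calls were lost and 10 gained, for Ccl3 and Ccl5 in both genotypes and Ccl9 in Arg260, and no called value turned. The number of members called stayed within 3 to 5 in both E2 comparisons (4 to 5 in WT and 3 to 4 in Arg260 when an array was left out) and at 0 in the others. With the replicate number as a block, 4 members were called in each genotype. All genes called then numbered 16394 in WT and 16673 in Arg260, against 16435 and 16629 in the main fit. Ccl5 in Arg260 was called with normexp and quantile normalisation (-0.63, adjusted p = 0.0292) and in the series table (-0.67, adjusted p = 0.0225). Ccl3 was called in WT with quantile normalisation (1.84, adjusted p = 0.0492), and within the first slide in both genotypes (1.63, adjusted p = 0.0337, and 2.24, adjusted p = 0.0102). Its Arg260 value was -0.79 within the second slide (adjusted p = 0.645). Apart from what leaving out a named array shows, the cause was not tested. Leaving out the pair of arrays that stood apart was chosen after seeing the data. Ccl20 lies below the background limit, and the number of arrays limits the genotype differences.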
